A study of Mus musculus with 12 samples.

Results

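The 88 genes described here carry the symbols of the nuclear-encoded subunits of the oxidative phosphorylation (OXPHOS) complexes of mouse mitochondria. Of these, 82 are subunit genes; Ndufa11b, Ndufb4c, Ndufs6b and Cox6c2 are annotated as processed pseudogenes, Cox7a2l is a supercomplex factor and Atp5s a coupling factor. The rule that chose them used symbols alone, but was set with earlier results of these data known. It took names beginning with Nduf and one of the letters a, b, c, s or v before a digit, the Sdh genes a to d, and names beginning with Uqcr, Cox (numbers 4 to 8) or Atp5. Of 94 gene identifiers that met this rule, 6 with the ending -ps (a pseudogene mark) were left out, so that 88 of the 50600 identifiers in the count tables remained. They comprise 38 genes of complex I, 4 of complex II, 8 of complex III, 21 of complex IV and 17 of complex V. The tissue was whole cerebral cortex from C57BL/6 mice, taken at 4 ages: 3 embryonic ones (days 11, 13 and 17, written E11, E13, E17) and postnatal day 1 (written P1), with no treatment and no engineered allele. Each age had 3 libraries (A, B and C), and each library held the whole cortex of a single embryo or pup, the 3 animals of an age being from 3 different litters. Libraries were made from polyadenylated RNA with a strand-specific kit and sequenced as 75-base single reads.

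OXPHOS is the process by which mitochondria make ATP. Complex I (NADH dehydrogenase) and complex II (succinate dehydrogenase, which is also an enzyme of the TCA cycle) pass electrons to ubiquinone, complex III passes them to cytochrome c, and complex IV (cytochrome c oxidase) passes them to oxygen. Complex V (ATP synthase) uses the proton gradient that complexes I, III and IV build. Most subunits are encoded in the nucleus and imported, a small catalytic set is encoded in mitochondrial DNA, and several subunits of complexes IV and V have more than 1 nuclear gene, some of them used mainly in muscle, lung or testis. Neurons depend heavily on OXPHOS, whereas dividing progenitors are known for strong use of glycolysis.

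Total counts ran from 28173745 to 45858712 per library, and the members took 0.658 to 0.884% of them. Over these 4 ages the tissue itself changed: the summed level of 10 pan-neuronal genes was 11100 to 11300 CPM (read counts scaled to a common library size with TMM factors) at P1 against 1470 to 1640 CPM at E11, while that of 16 cell cycle genes was 286 to 316 CPM at P1 against 4790 to 4970 CPM at E11. Erythroid genes (12) summed to between 5750 and 16500 CPM at E11, 783 and 1760 at E13, 165 and 344 at E17 and 45.7 and 84.1 at P1, and 8 meningeal fibroblast genes to between 1220 and 1480, 821 and 1130, 55.4 and 75.5, and 129 and 179 CPM. The 7 choroid plexus genes summed to between 96.4 and 268 CPM at E11, 43.4 and 399 at E13, 1.03 and 9.23 at E17 and 1.83 and 2.53 at P1. Their sum was uneven within E13, at 399 and 355 CPM in libraries A and B and 43.4 in C. In bulk tissue, fewer cells of a type and less RNA per cell cannot be told apart. The part of these markers in the results below was not tested. A fit with the erythroid genes removed left every count of called members at its value. It cannot show the part of red cells, because any reads of the members from such cells stayed in the counts.

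OXPHOS subunit genes changed little in size while the cortex changed a great deal. Between E11 and P1 the median absolute log2 fold change was 0.22 over the 81 tested members, against 0.97 over all 17847 tested genes. Within 0.5 on the log2 scale stayed 81.5% of the members but 29.0% of all genes. All tested genes were not matched to the members for level. Among the members, 2 reached an absolute log2 fold change of 1, and both were tissue isoforms of complex IV: Cox6b2 and Cox6a2. Across the 4 ages 64 of 81 members (79.0%) passed the test (edgeR quasi-likelihood test, adjusted p under 0.05), against 90.2% of all tested genes. The direction was not shared: by mean CPM, 35 members were highest at E11 and 36 at P1, with 3 at E13 and 7 at E17, and 38 were lowest at E17. The summed CPM of all members was 7664, 8098 and 7969 at E11, 7805, 7033 and 7718 at E13, 7103, 7134 and 7078 at E17, and 7519, 7591 and 7980 at P1. Sums at E17 lay closest together, and those of E11 and P1 overlapped.

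The complexes parted from each other with age. The sum of the 11 common complex IV subunits (the widely used isoforms) was 1022, 1093 and 1076 CPM at E11, 1094, 998 and 1099 at E13, 1151, 1153 and 1102 at E17, and 1307, 1350 and 1412 at P1. For the 4 complex II subunits the sum was 571, 595 and 583 CPM at E11, 544, 488 and 551 at E13, 446, 447 and 446 at E17, and 451, 452 and 474 at P1. Within a library, the ratio of these sums does not depend on how libraries are scaled. It was 1.79, 1.84 and 1.84 at E11, 2.01, 2.04 and 1.99 at E13, 2.58, 2.58 and 2.47 at E17, and 2.90, 2.99 and 2.98 at P1. No library of an age overlapped those of the next. Over complex V, the same complex IV sum had ratios of 0.430, 0.443 and 0.439 at P1, against 0.302, 0.308 and 0.309 at E11. Over complex I the ratios were 0.671, 0.689 and 0.683 at P1, against 0.546, 0.550 and 0.548 at E11. These ratios are descriptions of the summed lists and were not tested. Sums are weighted toward abundant genes: at P1 the 5 F1 genes made up 2080, 2087 and 2190 CPM of complex V's 3036, 3049 and 3215.

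**Figure D1:**
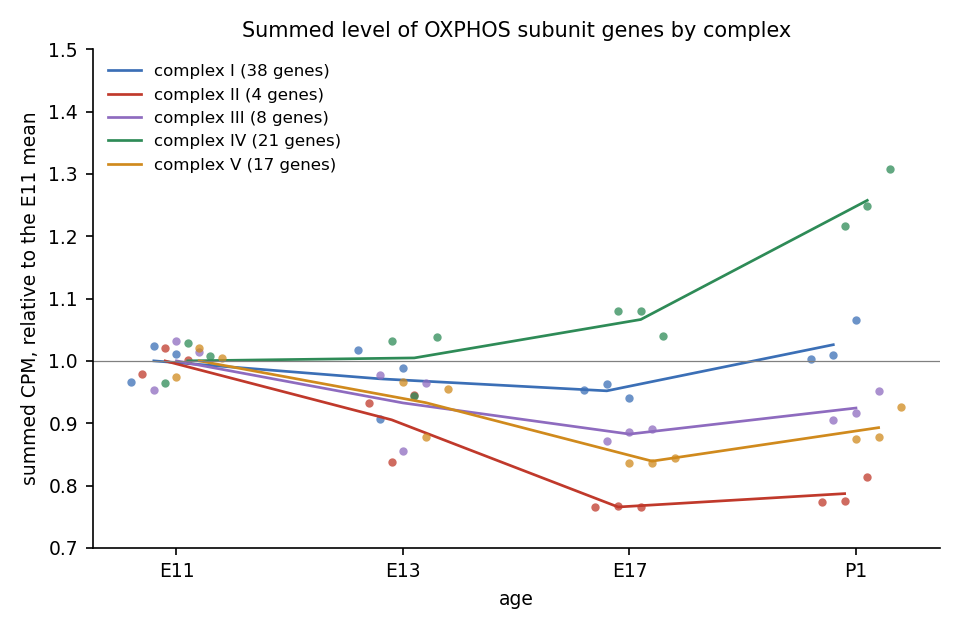
Summed CPM of the genes of each complex in each library, divided by that complex's mean at E11 (vertical axis, starting at 0.7), by age. Points are libraries and lines join the means of 3 libraries. Complex IV stands at 1421 ± 52.7 CPM at P1 against 1130 ± 37.0 at E11 (SD, n = 3 each), while complex II stands below its E11 libraries at E17 and P1.

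Scaling matters for directions, because the members' changes are small. With TMM factors the median log2 fold change of all tested genes was -0.036 for P1 over E11, and with library size alone it was -0.265. Called members at P1 over E11 were 26 higher and 25 lower of 81 with TMM factors, 32 and 22 with RLE factors, 18 and 35 with upper-quartile factors, and 13 and 47 with library size alone. Values below use TMM factors, and the counts of each complex are given with the others beside them where the balance moved.

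Several members' start regions carry a motif that is well known from genes of the respiratory chain. The core of the NRF1 site (nuclear respiratory factor 1), the ETS core that the factor GABP binds and the YY1 core were searched on both strands, from 250 bases before to 50 after each RefSeq transcript start (GRCm38.p6). These factors are known as activators of nuclear OXPHOS genes in mammals. The letters searched were GCGCNTGCG for NRF1, CCGGAAGT for ETS and AANATGGC for YY1, and matches were counted for each motif separately, whether or not they overlapped. Of the 88 members 68 were matched to a listed promoter. The NRF1 core was present in 23 of these 68 promoters (33.8%), against 7.12% of 27025 genes. The YY1 core was present in 17 (25.0%), against 6.96%, and the ETS core in 5 (7.35%), against 4.31%. At least 1 of the 3 was present in 41 members (60.3%), against 16.5% of genes. The 27025 genes are all those with a listed promoter, whether or not they were expressed in cortex. They were not matched to the members for level or base composition, and these differences were not tested. By complex, the NRF1 core was present in 8 of 15 promoters of complex V and 1 of 14 of complex IV, and the YY1 core in 12 of 31 of complex I. By direction, the NRF1 core was present in 9 of 22 promoters of members higher at P1 (40.9%) and 6 of 17 of members lower at P1 (35.3%). The YY1 core was present in 3 of 22 (13.6%) and 7 of 17 (41.2%), and the ETS core in 1 of 22 (4.55%) and 2 of 17 (11.8%), differences that were not tested. A match is a description of letters and not of a bound site. Members not searched included Ndufa11b, Ndufa2, Ndufb4c, Ndufb9, Ndufs1, Ndufs6b, Sdhc, Uqcrb, Uqcrc2, Uqcrq, Cox4i1, Cox4i2, Cox6a2, Cox6c, Cox6c2, Cox8c, Ndufa4l2, Atp5a1 and Atp5mpl.

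The 150 bases before the start are shown for 7 members named in the results below. They are a pair of complex I genes that rose at P1 over E11 (Ndufa8, Ndufb10) and a complex II gene that fell (Sdha). The others are 2 pairs of genes for the same subunit that moved apart (Atp5g1 and Atp5g2, Cox6b1 and Cox6b2). These are examples and do not stand for the members as a whole. Ndufb2, which rose more than Ndufb10 at P1 over E11, is not shown, and its promoter had 0 matches to each of the 3 motifs. The promoter of Sdhd, which also fell and is not shown, had 1 NRF1 match. They are written 5′ to 3′ on the gene's strand, which is the minus strand for all 7, with NRF1 core matches on either strand in capitals. In this window Ndufa8 held 2 matches, Ndufb10 held 1, Sdha held 3, and Atp5g2 held 2 that overlap, 1 on each strand. The windows of Atp5g1, Cox6b1 and Cox6b2 hold none.
Ndufa8, chr2:36049339-36049488: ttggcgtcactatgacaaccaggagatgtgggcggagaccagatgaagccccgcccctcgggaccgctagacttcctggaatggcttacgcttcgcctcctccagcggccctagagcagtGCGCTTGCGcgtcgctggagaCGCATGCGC
Ndufb10, chr17:24724424-24724573: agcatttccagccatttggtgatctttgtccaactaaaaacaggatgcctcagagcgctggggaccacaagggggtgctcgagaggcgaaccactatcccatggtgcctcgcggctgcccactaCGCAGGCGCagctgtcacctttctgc
Sdha, chr13:74350241-74350390: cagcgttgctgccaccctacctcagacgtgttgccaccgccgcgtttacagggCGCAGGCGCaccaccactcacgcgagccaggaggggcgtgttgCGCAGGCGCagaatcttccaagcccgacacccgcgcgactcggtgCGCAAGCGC
Atp5g1, chr11:96075632-96075781: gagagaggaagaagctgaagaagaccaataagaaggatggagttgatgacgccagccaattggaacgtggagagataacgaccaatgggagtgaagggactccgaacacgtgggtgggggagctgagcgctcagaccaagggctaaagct
Atp5g2, chr15:102671048-102671197: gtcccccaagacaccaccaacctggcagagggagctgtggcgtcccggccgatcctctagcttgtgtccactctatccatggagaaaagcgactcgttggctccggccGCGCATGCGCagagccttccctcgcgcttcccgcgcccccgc
Cox6b1, chr7:30626115-30626264: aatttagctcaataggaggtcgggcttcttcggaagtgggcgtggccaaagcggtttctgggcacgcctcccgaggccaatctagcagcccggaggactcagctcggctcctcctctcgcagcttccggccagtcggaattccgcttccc
Cox6b2, chr7:4753095-4753244: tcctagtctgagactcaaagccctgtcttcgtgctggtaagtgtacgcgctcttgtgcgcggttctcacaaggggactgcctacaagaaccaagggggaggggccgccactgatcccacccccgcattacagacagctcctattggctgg

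Complex I was divided. It has 7 nuclear core subunits, which carry the flavin and the iron-sulphur centres, and many accessory subunits that are needed to assemble and hold it. Of 35 tested complex I genes at P1 over E11, 14 rose (40.0%, near the 40.5% of all tested genes) and 10 fell (28.6%, against 41.8% of all), while 11 did not pass the test. The counts were 17 and 9 with RLE factors, 10 and 14 with upper-quartile factors and 6 and 17 with library size alone. Core and accessory subunits were both divided: 2 core genes rose and 2 fell of 7, and 12 accessory genes rose and 8 fell of 28. The largest rise was that of Ndufa8, an accessory subunit of the face toward the intermembrane space. Its level was 39.1, 40.8 and 33.8 CPM at E11, 45.8, 44.7 and 43.8 at E13, 62.3, 65.9 and 59.8 at E17, and 67.0, 63.5 and 69.6 at P1. All P1 libraries lay above all E11 libraries, with a log2 fold change of 0.81 ± 0.07 (SE, edgeR adjusted p = 7.06e-08). Ndufb2, an accessory subunit of the membrane arm, had 42.9, 43.1 and 49.8 CPM at P1 against 28.6, 31.3 and 30.6 at E11, a log2 fold change of 0.59 ± 0.07 (adjusted p = 5.45e-06).

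The largest fall in complex I was that of Ndufa2, an accessory subunit of the peripheral arm. It had 38.4, 36.5 and 37.7 CPM at P1 against 52.5, 57.3 and 61.5 at E11, with no overlap between these ages, and a log2 fold change of -0.61 ± 0.08 (edgeR adjusted p = 7.24e-06). Ndufa12, which joins late in assembly, had 25.7, 23.5 and 26.6 CPM at P1 against 36.1, 36.4 and 38.3 at E11 (-0.55 ± 0.08, adjusted p = 1.65e-05). The core subunit Ndufs1, the largest of the complex, fell by 0.22 on the log2 scale (adjusted p = 0.00451, and 0.0518 without P1 replicate A). Falls were also called for Ndufs6 (-0.34), Ndufb11 (-0.28), Ndufb7 (-0.26), Ndufb5 (-0.25), Ndufc1 (-0.20) and Ndufa13 (-0.14). Of these, Ndufa13 lost its call without any of 6 single libraries (all P1 libraries, E11 B, E11 C or E17 A) and with RLE factors (adjusted p = 0.119), and Ndufc1 without P1 replicate A (adjusted p = 0.0791). The core subunit Ndufv1, which binds NADH, was at 126, 127 and 131 CPM at P1 against 102, 103 and 102 at E11 (0.33 ± 0.04, adjusted p = 7.65e-06, and 0.0524 with library size alone). It is named here after its values were seen.

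Complex II fell in 3 of its 4 genes at P1 over E11 (75.0%, against 41.8% of all tested genes). Sdha, the flavoprotein that oxidizes succinate, had 188, 181 and 193 CPM at P1 against 247, 251 and 252 at E11, a log2 fold change of -0.42 ± 0.05 (edgeR adjusted p = 3.78e-06). The membrane anchors fell by similar sizes. Sdhc had 77.6, 77.3 and 77.4 CPM at P1 against 107, 115 and 115 at E11 (-0.53 ± 0.06, adjusted p = 1.08e-06), and Sdhd had 74.6, 81.1 and 85.3 CPM at P1 against 109, 121 and 111 at E11 (-0.50 ± 0.07, adjusted p = 1.28e-05). In all 3 genes each P1 library lay below each E11 library. Sdhb, the iron-sulphur subunit, had 111, 112 and 118 CPM at P1 against 107, 108 and 106 at E11, and its log2 fold change of 0.08 ± 0.05 did not pass the test (adjusted p = 0.10). Between E17 and P1 Sdhb was the 1 complex II gene that rose (0.21, adjusted p = 0.0017), after all 4 had fallen between E13 and E17, by 0.14 to 0.35 on the log2 scale. The fall of Sdhb at E17 was lost without E13 C (adjusted p = 0.0506) or E17 A (adjusted p = 0.111). The 3 falls between E11 and P1 were called with each of the 3 other scalings, and Sdhb was called as a rise with RLE factors and as a fall with library size alone.

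In complex III, 1 of 8 genes rose (12.5%, against 40.5% of all tested genes) and 3 fell (37.5%, near the 41.8% of all) at P1 over E11. With RLE factors the counts were 1 and 2, with upper-quartile factors 0 and 5, and with library size alone 0 and 7. Uqcrh, the acidic hinge protein near cytochrome c1, had 96.0, 96.8 and 98.9 CPM at P1 against 124, 143 and 137 at E11 (log2 fold change -0.47 ± 0.07, edgeR adjusted p = 1.65e-05). Uqcrb, a small subunit near the ubiquinone site, had 29.7, 30.4 and 33.6 CPM at P1 against 40.8, 46.5 and 43.5 at E11 (-0.48 ± 0.08, adjusted p = 8.69e-05). The P1 and E11 libraries did not overlap in either gene. Uqcrc2, a core subunit, was called at -0.13 (adjusted p = 0.0443) but did not pass the test across the 4 ages (adjusted p = 0.141), and the call was lost without any 1 of 8 libraries (E11 B, E11 C or any of E17 and P1) and with RLE factors (adjusted p = 0.148). The single rise was that of Uqcrq, with 63.0, 62.3 and 70.4 CPM at P1 against 51.2, 58.8 and 60.3 at E11 (0.20 ± 0.08, adjusted p = 0.04). That call was lost without E11 A (adjusted p = 0.191) or P1 C (adjusted p = 0.10), and with library size alone the value was -0.03. From E17 to P1, Uqcrq (0.36, adjusted p = 0.00335) and the core subunit Uqcrc1 (0.25, adjusted p = 0.0006) rose.

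Complex IV rose in most of its common subunits with TMM factors. Of its 11 common subunits 7 rose (63.6%, against 40.5% of all tested genes) and 1 fell (9.09%, against 41.8%) at P1 over E11, with a median log2 fold change of 0.37, against -0.04 over all tested genes. With RLE factors 9 rose and 1 fell, with upper-quartile factors 6 and 1, and with library size alone 5 and 2. Cox6a1, the common isoform of a regulatory subunit, had 84.5, 96.3 and 95.4 CPM at E11, 101, 90.9 and 105 at E13, 125, 121 and 117 at E17, and 155, 160 and 169 at P1. Every E17 library lay above every E13 library, and every P1 library above every E17 library. At P1 over E11 its log2 fold change was 0.81 ± 0.07 (edgeR adjusted p = 5.09e-08). Cox5b, the zinc-binding subunit, had 71.8, 75.2 and 76.7 CPM at P1 against 47.7, 49.1 and 53.9 at E11 (0.57 ± 0.06, adjusted p = 9.9e-07). At E17 it had 55.2, 55.3 and 52.3 CPM, so that its rise lay between E17 and P1 (0.46, adjusted p = 5.19e-05).

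The other common subunits moved at different ages. Cox8a, the smallest subunit, had 107, 114 and 120 CPM at P1 against 85.9, 76.8 and 69.9 at E17, a log2 fold change of 0.55 ± 0.09 (edgeR adjusted p = 0.000267). Cox4i1, the regulatory subunit that binds ATP, had 276, 283 and 289 CPM at P1 against 217, 210 and 204 at E11 (0.43 ± 0.05, adjusted p = 1.04e-06). Cox6b1, which faces the intermembrane space, had 140, 139 and 149 CPM at P1 against 110, 111 and 102 at E11 (0.40 ± 0.05, adjusted p = 6.5e-06). Cox7a2 was at 109, 109 and 117 CPM at P1 against 88.2, 95.7 and 100 at E11 (0.24 ± 0.06, adjusted p = 0.00334), a call that was lost with library size alone (adjusted p = 0.917). Ndufa4, which is named for complex I but is a subunit of complex IV, rose between E17 and P1 (0.36 ± 0.07, adjusted p = 0.00121) and had a log2 fold change of 0.16 at P1 over E11 that did not pass the test (adjusted p = 0.0609). The fall was that of Cox7c, with 33.1, 35.4 and 36.3 CPM at P1 against 39.2, 42.5 and 44.2 at E11 (-0.26 ± 0.07, adjusted p = 0.00305). Cox7a2l, a factor that joins complexes III and IV into supercomplexes and of which the C57BL/6 strain carries a short allele, was within 0.18 of 0 on the log2 scale in all 4 comparisons. Its only call, a rise of 0.18 between E11 and E13 (adjusted p = 0.0178), was lost without E11 C (adjusted p = 0.0824) or E13 C (adjusted p = 0.0746).

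**Figure D2:**
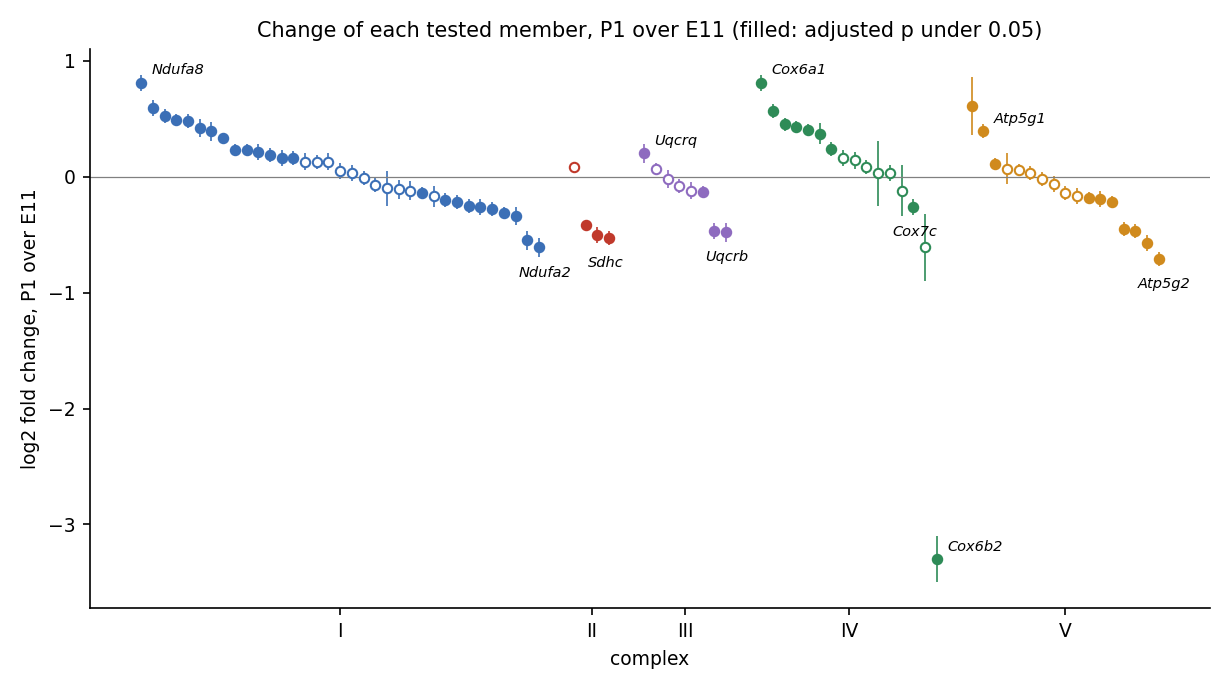
Log2 fold change of each tested member for P1 over E11 (vertical axis), ordered by size within each complex; bars are standard errors and filled points passed the test. Cox6a2, which had 0 counts at E11, is left out. Complexes I, III and V have filled points on both sides of 0, 3 of 4 complex II genes lie below it, and Cox6b2 lies at -3.30.

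A pair of tissue isoforms of complex IV had larger changes than any common subunit. Cox6b2, known as the testis isoform of subunit 6b, had 5.11, 5.57 and 5.38 CPM at E11, 3.04, 2.86 and 3.24 at E13, 0.530, 0.465 and 0.328 at E17, and 0.506, 0.412 and 0.692 at P1. In reads these were 19, 16 and 29 counts at P1, against 173, 189 and 169 at E11. The fall began between E11 and E13 (log2 fold change -0.81 ± 0.17, edgeR adjusted p = 0.0019), was largest between E13 and E17 (-2.82 ± 0.22, adjusted p = 4.42e-08), and stood at -3.30 ± 0.20 at P1 over E11 (adjusted p = 1.74e-09). Its counts were 4.63, 5.03 and 5.25% of those of Cox6b1 in the same libraries at E11, 2.71, 2.72 and 2.91% at E13, 0.402, 0.338 and 0.256% at E17, and 0.362, 0.298 and 0.463% at P1. This ratio of counts, which is not corrected for gene length, differed between the ages (exact permutation test over the 4 ages, adjusted p = 0.00104 over 8 ratios). The call at P1 over E11 held in every alternative tried. Of 6 male germ cell genes, the sperm protein genes Tnp1 and Prm1 were at 0 counts in every library and Ldhc had 7 counts in all. The list summed to 2.47 to 3.20 CPM at P1 against 0.943 to 1.21 at E11. Only 2 of the 6 could be tested, and both were higher at P1 over E11 (against 40.5% of all tested genes). The part of germ cell RNA in the Cox6b2 counts was not tested. The summed cell cycle genes were likewise lower at E17 than at E13. They fell again from 569 to 796 CPM at E17 to 286 to 316 at P1. In that last step Cox6b2 was not called (log2 fold change 0.33 ± 0.25, edgeR adjusted p = 0.303). The part of the cell cycle genes in the fall of Cox6b2 was not tested.

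Cox6a2, the heart and skeletal muscle isoform of subunit 6a, appeared at P1. It had 0 counts in all E11 libraries, 1, 0 and 0 at E13, 2, 1 and 2 at E17, and 37, 24 and 42 at P1, or 0.985, 0.618 and 1.00 CPM. Against a floor of 3 counts over the E11 libraries it was at least 28.8-fold higher at P1. It passed the filter on low counts only through the P1 libraries, so its test is not given, although it is among the members counted as higher at P1. Relative to Cox6a1 in the same library it stood at 0.637, 0.385 and 0.593% at P1 against 0.0608, 0.0296 and 0.0400% at E17, where the numerators were 2, 1 and 2 counts. Of 8 skeletal muscle genes 4 could be tested, and 3 of these rose between E17 and P1 (75.0%, against 24% of all tested genes). That list summed to 5.54 to 8.14 CPM at P1, against 1.85 to 2.83 at E17 and 3.27 to 4.49 at E11, and 7 heart muscle genes summed to 4.29 to 5.25 CPM at P1 against 2.46 to 3.67 at E17. The muscle list was not uniform. Against the 3 that rose, the muscle creatine kinase Ckm and the muscle factor Myog each had 2 counts in all 12 libraries together. Both were picked after their counts were seen. The part of muscle RNA in the Cox6a2 counts was not tested.

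**Figure D3:**
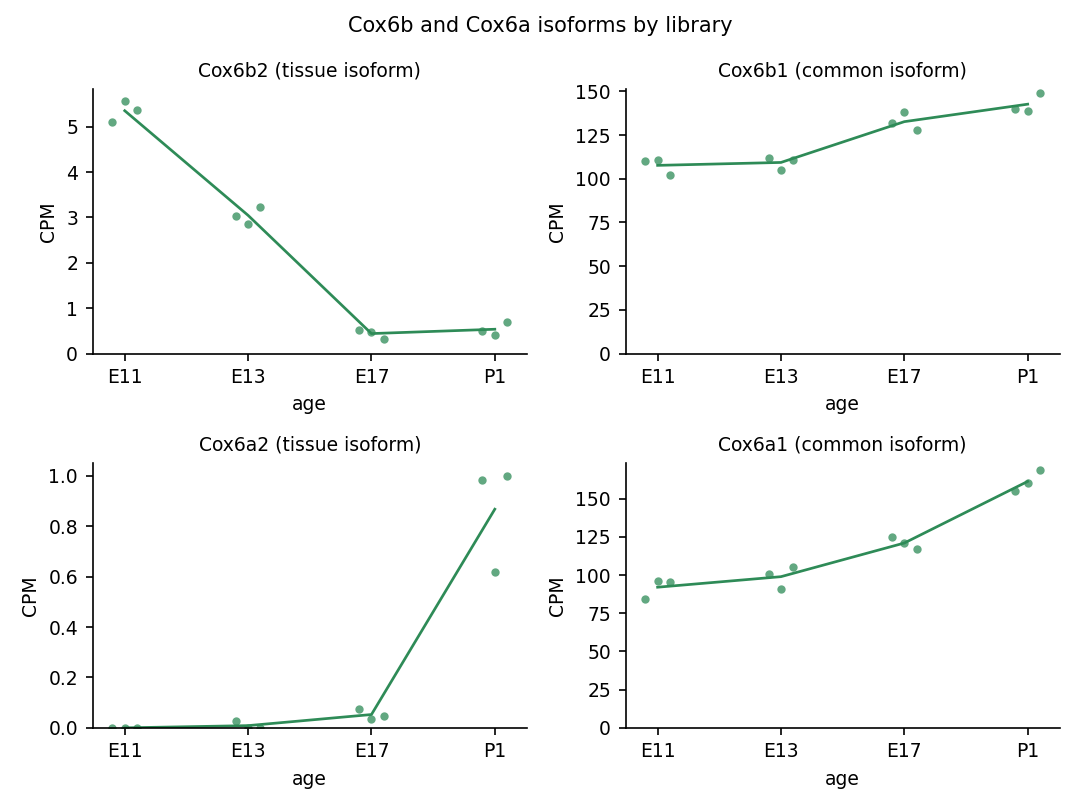
CPM of both Cox6b genes and both Cox6a genes in each library (vertical axes start at 0 and differ), by age; points are libraries and lines join the means. Cox6b2 falls to between 0.412 and 0.692 CPM at P1, against 5.11 to 5.57 at E11, while Cox6a2 is near 0 until E17 and at 0.618 to 1.00 CPM at P1.

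The remaining tissue isoforms were low and changed less. Cox4i2, the lung isoform of subunit 4, had 1.00, 1.56 and 0.891 CPM at E11, 0.555, 1.01 and 0.586 at E13, 1.10, 1.40 and 1.10 at E17, and 0.905, 0.618 and 0.740 at P1. These values overlapped between neighbouring ages except for E17 and its neighbours. Its ratio to Cox4i1 differed between the ages (exact permutation test, adjusted p = 0.0482), but not after leaving out any of 10 of the 12 libraries in turn (adjusted p between 0.0536 and 0.0986). Cox7a1, the muscle isoform of subunit 7a, had 0.317 to 0.773 CPM over all libraries, and its ratio to Cox7a2 did not pass the test (exact permutation test, adjusted p = 0.309). Ndufa4l2, a copy of Ndufa4 known to be induced by low oxygen, had 2.65, 2.72 and 2.58 CPM at E17 and between 1.37 and 2.39 CPM in the other libraries. Its ratio to Ndufa4 was 1.59, 1.01 and 1.40% at P1, against 2.52, 2.41 and 2.51% at E17 (exact permutation test over the 4 ages, adjusted p = 0.0159; 0.052 without E17 A and 0.0507 without E17 C). Pericytes are known for Cox4i2 and Ndufa4l2. Of 12 pericyte and smooth muscle genes 5 rose and 5 fell between E13 and E17 (Cspg4 by 1.72, Notch3 by -2.04). These are 41.7% each, near the 36.8% and 37% of all tested genes. That list summed to 239 to 264 CPM at E17 and 297 to 335 at E13, and its part was not tested. Cox8b and Cox8c, the muscle and testis isoforms of subunit 8, had 0 counts in every library. Cox7b2 and the copies Ndufa11b, Ndufb4c, Ndufs6b and Cox6c2 were too low to test, at no more than 0.151 CPM in any library.

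In complex V, 3 of 17 genes rose at P1 over E11 (17.6%, against 40.5% of all tested genes) and 7 fell (41.2%, near the 41.8% of all). The counts were 3 and 6 under RLE factors, 1 and 10 under upper-quartile factors and 1 and 14 under library size alone. In the F1 head, the catalytic beta subunit gene Atp5b had 898, 891 and 956 CPM at P1 against 1030, 1040 and 1040 at E11 (log2 fold change -0.18 ± 0.05, edgeR adjusted p = 0.00411, but 0.051 without P1 A and 0.0557 without P1 B), and the alpha subunit gene Atp5a1 had 784, 787 and 813 against 919, 928 and 935 (-0.22 ± 0.05, adjusted p = 0.00132). The delta subunit gene Atp5d dipped at E17, with 123, 126 and 128 CPM at P1 against 105, 107 and 102 at E17 (0.26 ± 0.05, adjusted p = 0.000626). Of the subunits of the stalk and the membrane sector, Atp5j2 (subunit f) had 72.8, 78.3 and 82.8 CPM at P1 against 110, 120 and 118 at E11 (-0.57 ± 0.07, adjusted p = 2.36e-06). The stalk subunits Atp5h and Atp5j fell by 0.47 and 0.45 on the log2 scale (adjusted p = 3.44e-06 and 6.01e-06). The rises of Atp5o (0.11, adjusted p = 0.044) and Atp5l (0.61, adjusted p = 0.0376) depended on single libraries: Atp5o lost its call without E11 A, E11 C, E13 C, E17 C or P1 C, and Atp5l without E11 A, E11 B or P1 C. With library size alone Atp5o was at -0.12.

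The 3 genes of subunit c, whose mature proteins form the same ring in the membrane, moved apart. Atp5g2 had 22.9, 22.7 and 23.8 CPM at E11, 23.6, 22.2 and 22.5 at E13, 16.8, 16.6 and 16.9 at E17, and 14.6, 13.9 and 13.9 at P1. It fell between E13 and E17 (log2 fold change -0.44 ± 0.06, edgeR adjusted p = 2.29e-05) and again between E17 and P1 (-0.24 ± 0.06, adjusted p = 0.00615). Atp5g1 had 41.2, 44.2 and 42.4 CPM at E11, 41.3, 36.8 and 39.7 at E13, 45.0, 49.1 and 47.6 at E17, and 54.9, 53.1 and 59.3 at P1, and rose at P1 over E11 (0.39 ± 0.06, adjusted p = 5.44e-05). Atp5g3 had 191, 193 and 211 CPM at P1 against 179, 206 and 199 at E11, with overlap (0.03 ± 0.06, adjusted p = 0.68). The counts of Atp5g1 were 179, 195 and 178% of those of Atp5g2 at E11, 175, 166 and 176% at E13, 267, 297 and 283% at E17, and 375, 381 and 428% at P1. Every assignment of the libraries to 4 ages gave a weaker separation than this or an equal one (exact permutation test, p = 6.49e-05, the smallest that 369600 assignments can give, adjusted p = 0.000519). These levels are uncertain, because 100% of the 75-base stretches of the Atp5g2 transcript and 59.6% of those of Atp5g1 also occur in other genes annotated in GENCODE vM21, as do 76.0% for Atp5l, 53.9% for Atp5h and 50.4% for Cox7c. By the same measure 49 of the 88 members shared no stretch with another gene.

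**Figure D4:**
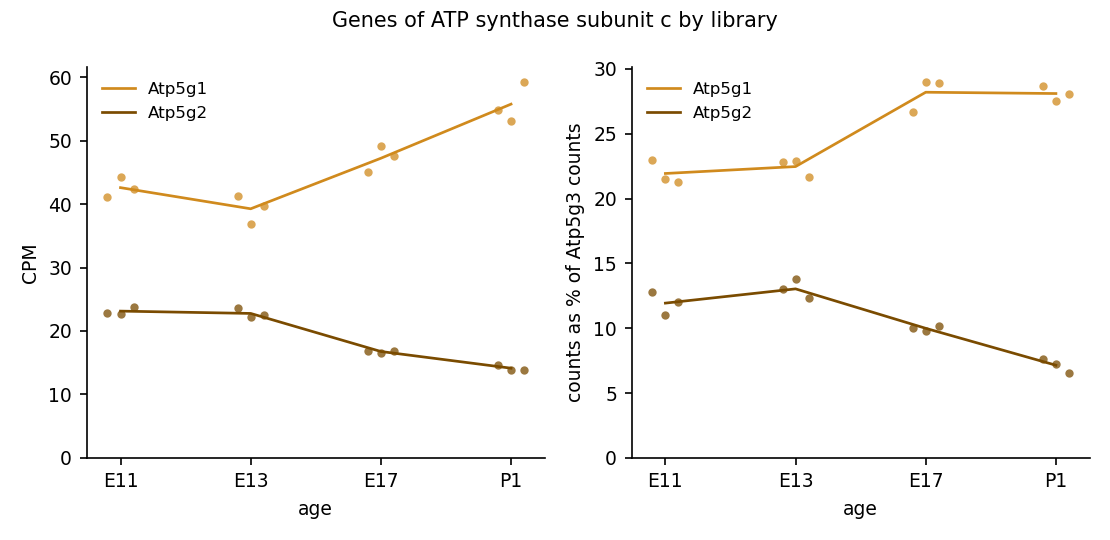
Left, CPM of Atp5g1 and Atp5g2 in each library; right, their counts as percent of those of Atp5g3 in the same library; both by age, with lines joining the means. Atp5g1 stands at 27.5 to 28.7% of Atp5g3 at P1 against 21.3 to 23.0% at E11, and Atp5g2 at 6.57 to 7.65% at P1 against 11.0 to 12.8% at E11.

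Taken step by step, calls were few before E13 and mostly higher after E17. Between E11 and E13, 3 of 81 members rose (3.70%, against 22.6% of all tested genes) and 11 fell (13.6%, against 17.5%). Upper-quartile factors gave 2 and 20. The count of 14 was 9 without E11 B and 7 without E11 C. Falls that held in each leave-one-out fit included those of Ndufb8, an accessory subunit of complex I, with 77.4, 65.5 and 75.4 CPM at E13 against 84.9, 91.2 and 97.8 at E11 (log2 fold change -0.33 ± 0.07, edgeR adjusted p = 0.003), Sdhd (-0.28, adjusted p = 0.00573) and Atp5mpl, a small proteolipid of complex V (-0.27, adjusted p = 0.00668). Ndufb10, an accessory subunit of complex I, rose (0.21 ± 0.05, adjusted p = 0.00482).

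Between E13 and E17, 15 members rose (18.5%, against 36.8% of all tested genes) and 23 fell (28.4%, against 37% of all). The balance depended on the setting: RLE factors gave 16 and 20, no filter on low counts 15 and 16, upper-quartile factors 9 and 37, and library size alone 3 and 55, while the counts without E17 A were 15 and 17. Of the falls, 8 were in complex V, 7 in complex I, 4 in complex II and 3 in complex III, and the 1 in complex IV was Cox6b2. Of the rises, 8 were in complex I and 6 in complex IV. Those of complex IV were 4 common subunits and 2 tissue isoforms of low level, Cox4i2 (0.73, edgeR adjusted p = 0.0362) and Cox7a1 (0.69, adjusted p = 0.0428). Both isoform calls were lost with library size alone (adjusted p = 0.103 and 0.122) and without E17 B (0.11 and 0.0864). Without E13 B the counts over all tested members were 11 rises and 35 falls. That library had the lowest level of its age for 67 of the 81 tested members, and P1 C had the highest of its age for 68, so that members deviated together within an age.

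Between E17 and P1, 28 members rose (34.6%, against 24% of all tested genes) and 2 fell (2.47%, against 25.9%), and the median log2 fold change was 0.09 against -0.00 over all tested genes. The balance held under the other 3 scalings, with 27 to 32 rises and 1 to 3 falls. The rises were spread over complex I (12), complex II (1), complex III (3), complex IV (8) and complex V (4). Among them were the core subunit Ndufs3 (0.31 ± 0.06, edgeR adjusted p = 0.00139) and the accessory subunit Ndufb6 (0.28 ± 0.07, adjusted p = 0.0032) of complex I. The falls were Atp5g2 and Uqcrh, and that of Uqcrh (-0.18, adjusted p = 0.0366) was lost on leaving out any 1 of the E17 and P1 libraries, with adjusted p between 0.056 and 0.142. Over the whole span from E11 to P1, 26 rose (32.1%, against 40.5% of all tested genes) and 25 fell (30.9%, against 41.8%). The 17 tested members that did not pass the test across the 4 ages were Ndufa3, Ndufa7, Ndufb3, Ndufb4, Ndufc2, Ndufs8, Uqcr11, Uqcrc2, Uqcrfs1, Cox7a1, Cox7b, Ndufa4l2, Atp5c1, Atp5f1, Atp5k, Atp5o and Atp5s.

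Over all tested genes 40.5% were higher and 41.8% lower at P1 over E11, the shares against which the counts of the following lists stand. Of 78 mitochondrial ribosomal protein genes 5 rose (6.41%) and 56 fell (71.8%), the median log2 fold change was -0.52, and under the other scalings 54 to 67 fell. The largest fall was that of Mrpl13 (-1.48, edgeR adjusted p = 5.93e-11) and the largest rise that of Mrps26 (0.70, adjusted p = 6.95e-07). The summed level of OXPHOS members over that of these genes was 2.82, 2.79 and 2.77 at E11, 2.92, 2.93 and 2.92 at E13, 3.36, 3.39 and 3.34 at E17, and 3.72, 3.70 and 3.78 at P1, without overlap between ages. Over 17 glycolysis genes it was 1.27, 1.39 and 1.28 at E11, 1.56, 1.55 and 1.52 at E13, 2.47, 2.30 and 2.39 at E17, and 2.45, 2.55 and 2.40 at P1, where the last 2 ages overlapped. Of the glycolysis genes 12 fell (70.6%) and 4 rose (23.5%) at P1 over E11 under all 4 scalings. Hk2, a hexokinase, had a log2 fold change of -4.27 (adjusted p = 1.82e-12) and Pfkp, the platelet-type phosphofructokinase, one of 4.98 (adjusted p = 4.6e-11).

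**Figure D5:**
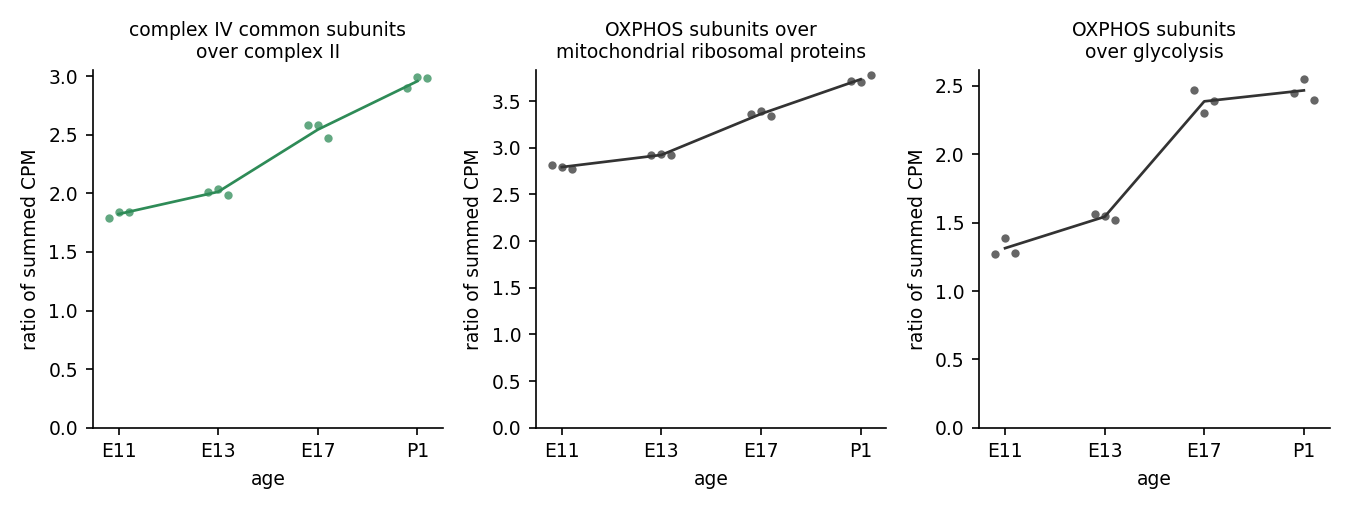
Ratio of summed CPM in each library, by age, for the common complex IV subunits over complex II (left), all OXPHOS members over mitochondrial ribosomal proteins (middle) and all members over glycolysis genes (right). Points are libraries, lines join the means and the axes start at 0; the P1 libraries lie above all E11 libraries in each panel, at 2.90 to 2.99, 3.70 to 3.78 and 2.40 to 2.55 against 1.79 to 1.84, 2.77 to 2.82 and 1.27 to 1.39.

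Of 17 genes of the TCA cycle and pyruvate dehydrogenase, 6 rose and 6 fell at P1 over E11 (35.3% each, near the shares of all genes), and library size alone gave 5 and 11. The largest rise was that of Idh3a, a subunit of the NAD-dependent isocitrate dehydrogenase (log2 fold change 1.10, edgeR adjusted p = 1.53e-09), and the largest fall that of Suclg2, the GDP-forming subunit of succinyl-CoA synthetase (-3.08, adjusted p = 8.34e-12). Assembly factors, which build the complexes without staying in them, were mixed. For complex I, 4 of 15 rose (26.7%) and 7 fell (46.7%), for complex IV 5 of 23 rose (21.7%) and 9 fell (39.1%), for complex III 2 of 6 rose (33.3%) and 1 fell (16.7%), and for complexes II and V none rose while 3 of 4 and 2 of 4 fell. The largest changes in these lists were those of Ecsit (0.98) and Nubpl (-1.67) for complex I, Sdhaf1 (-0.75) for complex II, Ttc19 (1.44) and Uqcc2 (-0.23, a call lost without E11 B, E11 C, P1 A or P1 B) for complex III, Sco2 (1.10) and Cmc2 (-2.39) for complex IV, and Tmem70 (-0.47) for ATP synthase. Of 10 genes of the outer membrane and import machinery 4 rose and 5 fell, near the shares of all genes, with the receptor Tomm20 at 1.55 and Timm50 at -0.60.

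Among 9 further respiratory chain proteins, a list that includes the member Atp5mpl, 8 could be tested, of which 3 rose and 3 fell at P1 over E11 (37.5% each). Atpif1, the inhibitor of ATP synthase, rose by 0.79 (edgeR adjusted p = 8.22e-09), and Ndufab1, the acyl carrier protein that is also a complex I subunit but lies outside the symbol rule, fell by 0.88 on the log2 scale (adjusted p = 5e-07). Of the 13 subunits encoded in mitochondrial DNA 8 could be tested, and 5 rose (62.5%, against 40.5% of all tested genes) and 1 fell (12.5%, against 41.8%) at P1 over E11. With library size alone 2 rose and 1 fell. The largest rise among those at 10 CPM or more was that of mt-Nd5 (0.57, adjusted p = 0.00123), and the fall was that of mt-Nd6 (-1.84, adjusted p = 1.58e-05), the gene on the opposite strand. The 5 that were too low to test had 10 counts or fewer in all libraries, and such genes have nuclear copies, so their counts are uncertain.

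Of 14 regulators of mitochondrial gene expression 4 rose (28.6%, against 40.5% of all tested genes) and 9 fell (64.3%, against 41.8%) at P1 over E11, with a median log2 fold change of -0.65. With upper-quartile factors 3 rose, and with library size alone 1 rose, while 9 fell under each scaling. The rise that was largest was that of Ppargc1a (PGC-1alpha, the coactivator of mitochondrial biogenesis), with a mean of 20.6 CPM at P1 against 6.13 at E11 (log2 fold change 1.75, edgeR adjusted p = 9.73e-09). The largest fall was that of Tfb1m, which methylates mitochondrial ribosomal RNA, with 2.65 against 13.0 CPM (-2.29, adjusted p = 2.71e-09). The genes of the factors whose motifs were searched, which are named after their values were seen, were also lower at P1: Nrf1 by -1.15, Gabpa by -1.20 and Yy1 by -0.57 (adjusted p = 2.62e-09, 2.64e-10 and 5.24e-07).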

How the data were processed

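Each deposited table held raw read counts per Ensembl gene identifier for 1 library, with no normalization by the authors. The submitters' processing notes list STAR 2.5.2b, HTSeq 0.5.3, SAMtools, DESeq2 1.8.1 and bcl2fastq 2.18. Which tool did which step is not given in the sources used here, nor are genome build, annotation and strand setting. Symbols came from a table of gene names (50376 of 50600 identifiers), and the 224 identifiers without one took 0.0674 to 0.0877% of counts.

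All fits used edgeR 4.0.16 (R 4.3.3). The filterByExpr rule, at a minimum count of 10, left 17847 genes and removed 32753. TMM factors lay between 0.92 and 1.094. All 12 libraries entered 1 robust quasi-likelihood fit, with age as the factor (common biological coefficient of variation 0.106). P-values are two-sided and Benjamini-Hochberg adjusted over the 17847 genes, with a threshold of 0.05. Standard errors are the absolute log2 fold change divided by the square root of F. They rest on 3 animals per age. The procedure was tested on simulated data in which a small set of genes changed at P1 and all others stayed flat. Most tested genes changed in the real data, so that test cannot judge the choice of scaling. Isoform ratios (log2, 0.5 added to each count, both genes with at least 10 counts) were compared across ages by an exact permutation test of F, and bounds use a floor of 3 counts and cover counting error only.

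Members and lists were chosen with earlier results of these data known. Named members were the isoforms, the complex II genes, the 2 largest rises and falls per complex and comparison at 10 CPM or more, and those against most of their complex. Members that did not pass the test across the ages, Uqcrc2 among them, or were too low to test were named as well. From other lists at most the largest rise and fall were named. Named outside this rule, after their values were seen, were Ndufv1, Atp5a1, Atp5b, Atp5h, Atp5j, Nrf1, Gabpa and Yy1, and, for their counts alone, Tnp1, Prm1, Ldhc, Ckm and Myog. The Cox8b to Cox8a ratio was not computed, since Cox8b had 0 counts. Proteins are not shown. The values of 1 member are not reported here, though it is part of all counts. Alternatives tried were RLE and upper-quartile factors, library size alone, no filter, 1 CPM in 3 libraries, erythroid genes removed, only the ages compared, a replicate block, DESeq2 1.42.0, limma-voom (limma 3.58.1), 1 in place of 0.5 added for ratios, each library left out in turn, and 3 libraries left out together.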

Additional observations from a re-analysis of the deposited data

How the results depend on the processing

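Of 80 calls of members named by rule, 52 held under all 23 alternatives, and 2 turned direction, both with library size alone at P1 over E11: Atp5o (-0.12) and Uqcrq (-0.03). Counts of called members moved by over 1.5 times in these cases: the 14 at E13 over E11 became 22 with upper-quartile factors and 4 when E17 A, E13 C and E11 C were all left out, and the 38 at E17 over E13 became 58 with library size alone and 25 without those 3 libraries. Without E11 B the 14 became 9, and without E11 C 7. With each library left out in turn the counts ran from 7 to 18 at E13 over E11, 29 to 46 at E17 over E13, 22 to 37 at P1 over E17, 45 to 58 at P1 over E11 and 56 to 65 across the ages. DESeq2 gave 33 higher and 22 lower at P1 over E11, and no filter gave 30 and 20. The Cox4i2 to Cox4i1 log2 ratio at P1 over E11 was -1.01, with -1.16 to -0.77 over single omissions and -1.14 without the 3 libraries (adjusted p = 0.113); that of Ndufa4l2 to Ndufa4 was -0.28, with -0.48 to -0.09. The cause was not tested. Replicate letters did not pair the animals: deviations of same-lettered libraries correlated between -0.442 and 0.403. With the replicate block 3 members rose and 10 fell at E13 over E11, 14 and 20 at E17 over E13, 25 and 1 at P1 over E17, and 23 and 23 at P1 over E11. Of 6 further members named at P1 over E11, 3 held in all alternatives (Ndufv1, Uqcrc2 and Atp5b did not), as did 26 of 27 genes of other lists (Uqcc2 did not). Members under 1 CPM are limited by depth.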
